A study of Rattus norvegicus with 12 samples.

Results

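Olfactory receptor genes that received reads in whole skeletal muscle are described here. The name pattern Olr followed by a digit, with a summed count of 1 or more over the 6 whole-muscle libraries, picked 117 of the 1115 rows of that name in a table of 30560 genes. One of the 117, Olr1, is not an olfactory receptor: the RefSeq gene table lists LOX-1 and Oldlr1 among its synonyms, which name the receptor for oxidised low-density lipoprotein. It is given apart, and the counts below refer to the 116 olfactory receptors with muscle counts and to the 1114 olfactory receptor rows in all, of which 998 had no muscle count. The muscle counts themselves chose these receptors, so they are given as a description without a test. The counts in the mitochondria libraries were not used for the choice.

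The libraries were made from total RNA of the inner red gastrocnemius, a calf muscle, of wild-type male Wistar Kyoto rats aged 9 weeks. One group was whole muscle, from snap-frozen tissue and 50 ng of RNA, and the other was mitochondria from fresh tissue of the same 6 animals, from 10 ng of RNA. The mitochondria had been isolated by immunoprecipitation and then purified with 2 digestions, RNase A against RNA and proteinase K against protein, and no group without this treatment was analysed here. Each group had 6 libraries, DNase was applied during RNA extraction, and ribosomal RNA was depleted from all of them.

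Olfactory receptors are G protein-coupled receptors that bind odour molecules on the cilia of sensory neurons in the nose. Each such neuron expresses as a rule a single receptor gene, and the receptor signals through the G protein subunit Gnal, the adenylate cyclase Adcy3 and a cyclic nucleotide-gated channel. They form one of the largest gene families of the rat, mostly in clusters on the chromosomes, and fall into class I, an older group shared with fish, and the larger class II. Some members are also transcribed outside the nose. Among these, Olr59 (synonyms Or51e2 and Olfr78 in RefSeq) is known as a receptor for short-chain fatty acids in blood vessels, kidney and carotid body, and Olr63 (Or51e1 in RefSeq) is its neighbour in the genome and a further receptor for fatty acids.

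Windows at RefSeq start sites, called promoters here, are shown for Olr63, Olr59 and Olr1585. Olr63 and Olr59 held most muscle counts, and Olr1585 was the receptor with the most counts in mitochondria. The windows run from 250 bases before to 50 bases after the start site, 5′ to 3′ on the gene's strand. They are on GRCr8, a later assembly than that of the counts. For Olr63 and Olr1585 the 50 bases after the start site begin with ATG, a start codon. Those windows may thus lie at the start of the coding sequence, and whether a window holds the transcription start was not tested. Capitals mark TATAAA on either strand. Olr63 lies at chr1:166559971-166560270 on the plus strand, Olr59 at chr1:166610854-166611153 on the minus strand and Olr1585 at chr13:88594043-88594342 on the plus strand.
Olr63: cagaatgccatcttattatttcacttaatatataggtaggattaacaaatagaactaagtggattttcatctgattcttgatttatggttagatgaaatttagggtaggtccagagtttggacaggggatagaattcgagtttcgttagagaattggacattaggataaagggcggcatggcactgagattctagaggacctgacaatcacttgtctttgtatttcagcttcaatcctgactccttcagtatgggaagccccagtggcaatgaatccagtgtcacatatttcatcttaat
Olr59: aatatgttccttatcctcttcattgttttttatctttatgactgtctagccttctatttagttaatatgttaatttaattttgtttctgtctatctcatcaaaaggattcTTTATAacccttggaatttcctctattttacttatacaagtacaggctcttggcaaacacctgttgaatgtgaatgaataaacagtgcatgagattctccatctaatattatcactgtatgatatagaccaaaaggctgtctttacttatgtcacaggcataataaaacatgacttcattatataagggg
Olr1585: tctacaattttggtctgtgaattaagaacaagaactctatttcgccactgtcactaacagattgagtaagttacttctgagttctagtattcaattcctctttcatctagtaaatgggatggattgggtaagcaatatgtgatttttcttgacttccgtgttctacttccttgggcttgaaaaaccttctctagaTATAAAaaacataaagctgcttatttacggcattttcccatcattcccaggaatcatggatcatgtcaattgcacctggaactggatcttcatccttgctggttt

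The shares below refer to such windows at RefSeq start sites, whether or not they hold a transcription start. TATAAA, searched on both strands, was present in Olr59 and Olr1585 and not in the Olr63 window. It occurred in 29.2% of the 96 promoters found for receptors with muscle counts, in 38.0% of 892 promoters of receptor rows and in 14.3% of all 27457 promoters. TAATTA, a core bound by homeodomain proteins such as Lhx2 and Emx2, occurred in none of these 3 windows, in 12.5% of the promoters of receptors with muscle counts, in 19.1% of those of receptor rows and in 5.35% of all. The core bound by the Ebf factors of olfactory neurons, TCCC and GGGA set 2 bases apart, occurred in 0 of the 892 receptor promoters and in 0.841% of all promoters. The CArG box, bound by serum response factor in muscle genes, occurred in 3 of the 96, in 1.12% of receptor promoters and in 1.64% of all, and in none of the 3 windows. The GC content was 38.3% in the Olr63 window, 31% for Olr59 and 37.3% for Olr1585, against medians of 38.0% over the receptors with muscle counts, 35.3% over receptor rows and 52.3% over all promoters.

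The depth differed widely between the groups. Whole-muscle libraries held 15579407 to 22116750 counts on nuclear genes and mitochondria libraries 573903 to 1055433. Levels are given as CPM of nuclear counts (counts relative to 1e+06 counts on genes outside the mitochondrial genome), since that genome took 26.4% to 35.9% of muscle counts and 12.9% to 51.5% of mitochondria counts. On this scale 1 count was worth 0.0452 to 0.0642 CPM in a muscle library and 0.947 to 1.74 CPM in a mitochondria library. Counts are not divided by gene length, which the deposited table does not give, so an order of receptors below is an order of counts. The muscle label held: 11 of 11 fibre marker rows found, such as Acta1, Myh4 and Ckm, summed to 250450 to 308508 CPM in muscle. In mitochondria the same fibre rows summed to 2419 to 4934 CPM. All 11 passed as lower there with TMM in edgeR, where 30.3% of all genes did. The mitochondria label was not borne out by the share of the mitochondrial genome. That share averaged 33.0% in mitochondria and 32.1% in muscle, with overlapping ranges. Markers of the olfactory sensory neuron summed to 19.9 to 35.0 CPM in muscle over 11 rows, with Rtp1 at 0, and all 4 rows found for supporting and gland cells of the olfactory epithelium (Cyp2g1, Muc5b, Obp2a, Ugt2a1) and all 4 found for sperm (Akap4, Odf1, Prm2, Tnp1) were at 0 in every muscle library. In mitochondria libraries none of these lists was at 0: the neuron markers summed to 613 to 665 CPM, the supporting and gland cell markers to 290 to 347 and the sperm markers to 66.2 to 105. All 11, 4 and 4 rows passed as higher there with TMM in edgeR, where 63.0% of all genes did. Rows at 0 in muscle could pass the filter on low counts only through mitochondria, so nothing is read from their calls. By CPM the neuron, the supporting and gland cell and the sperm lists lay higher in mitochondria, as did the receptors below. The 11 neuron rows all belong to the odour transduction list below as well, so those lists share genes. Of the whole odour transduction list, 17 genes were higher and 8 lower with TMM. The part of the marker lists in the results below was not tested.

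Muscle receptor counts were concentrated on very few genes. Over 6 libraries the 116 receptors held 1270 counts, or 10.97 ± 1.44 CPM per library (SD, n = 6). Olr63 held 446 of them and Olr59 held 444, together 70.1%. The leading 5 held 81.3% and the leading 10 held 85.0%. Within single libraries the pair took between 64.6% and 74.6%. At the other end, 62 receptors had a single count in all of the muscle data and 26 had 2, so 88 of the 116 lay at or just inside the threshold of 1 count, with the 998 receptors at 0 just outside it. A total of 0 allows a level of up to 0.0259 CPM (3 counts over the group, counting error only).

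Olr63 had 84, 77, 99, 57, 57 and 72 counts in muscle replicates 1 to 6, which is 3.83 ± 0.606 CPM (SD, n = 6). Olr59 had 60, 96, 68, 55, 77 and 88 counts, which is 3.86 ± 0.862 CPM. The pair could not be ordered in muscle: Olr59 was the higher in 3 of the 6 libraries. Every muscle library held at least 55 counts of each, so neither value rests on a single animal.

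Olr1585 came next with 24, 15, 16, 6, 8 and 14 counts (0.696 ± 0.263 CPM), below Olr63 and Olr59 in all 6 libraries. Olr58-ps, a pseudogene of class I (Or51f23b-ps1), had 5, 12, 3, 5, 5 and 10 counts (0.350 ± 0.183 CPM). In RefSeq it overlaps the span of Olr59, and so does Olr57, which had 1 muscle count, so reads of Olr59 and of these genes may not be fully separable. Or10aa1 likewise overlaps the RefSeq span of Olr1585.

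Beyond these 4, the muscle data held 257 counts on 112 receptors. Olr1877 had 20 counts, Olr35 and Olr854 had 11 each, Olr1589 had 9, Olr1587 and Olr287 had 8, Olr1366 had 7, and Olr1193, Olr1345, Olr1387 and Olr1607 had 6. A count in all 6 muscle libraries was seen for 6 receptors: Olr63, Olr59, Olr1585, Olr58-ps, Olr1589 and Olr287. Olr1877, Olr35 and Olr854 had counts in 5 libraries and Olr1587 in 4. Olr1366 and Olr1345 drew 5 of their counts each from muscle replicate 4, whereas Olr287 had 1 or 2 counts in every library. A count in only 1 library was the rule, with 89 receptors.

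**Figure D1:**
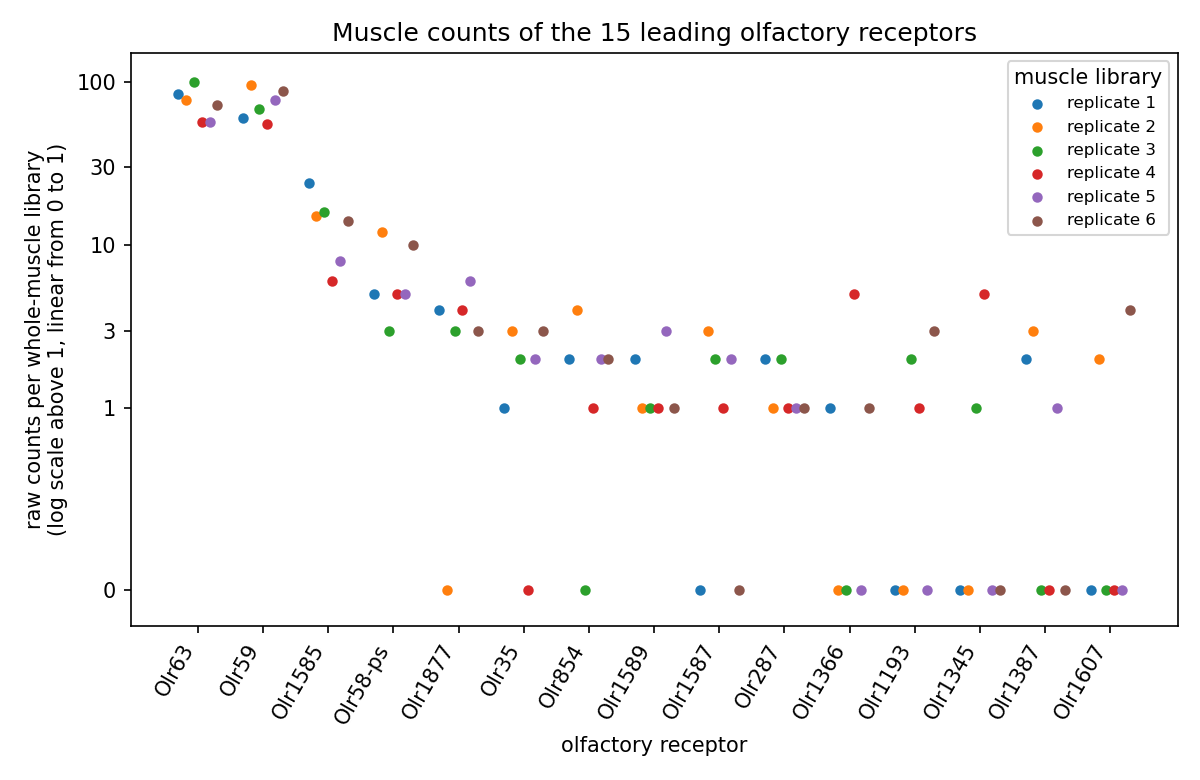
Raw counts of the 15 receptors with the most muscle counts (horizontal axis) in each whole-muscle library (vertical axis, logarithmic above 1 and linear from 0 to 1); each point is 1 library, coloured by replicate. Olr63 and Olr59 lie between 55 and 99 in every library, Olr1585 between 6 and 24, and from Olr1877 on no library exceeds 6 counts.

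Whether a receptor's muscle counts recur was looked at in the library that had no part in choosing it. Receptors chosen on 5 muscle libraries held 85.6% to 95.7% of the receptor counts of the sixth, and in each of the 6 cases Olr63, Olr59, Olr1585 and Olr58-ps were the leading 4. Without these 4, between 9.71% and 14.4% of the chosen receptors had a count in the left-out library, against 0.499% to 2.16% of the receptors not chosen. The share was higher among chosen receptors in all 6 libraries, although most chosen receptors were not seen again. Olr1589 and Olr287 had counts in all 6 libraries, so they were seen again in each case by construction, and nothing is read from that. These shares carry no test, because receptors are not replicates.

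Most muscle counts lay on chromosomes 1 and 13. RefSeq placed 115 of the 116 receptors, 7 by symbol and 108 by a synonym. Chromosome 1 held 28 of them and 985 of the 1270 counts, among them Olr63, Olr59 and Olr58-ps, and 9.86% of its 284 receptor rows had a muscle count, near the 10.4% over all rows. Chromosome 13 stood higher, with 10 of its 19 receptor rows (52.6%) and 110 counts. These were Olr1582, Olr1585, Olr1587, Olr1589, Olr1590, Olr1591, Olr1593, Olr1595, Olr1596 and Olr1601, and all but Olr1585 had between 1 and 9 counts. Chromosomes 5 and 11 had 7 of 26 and 8 of 30 rows with muscle counts, and chromosome 8 had 8 of 134.

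**Figure D2:**
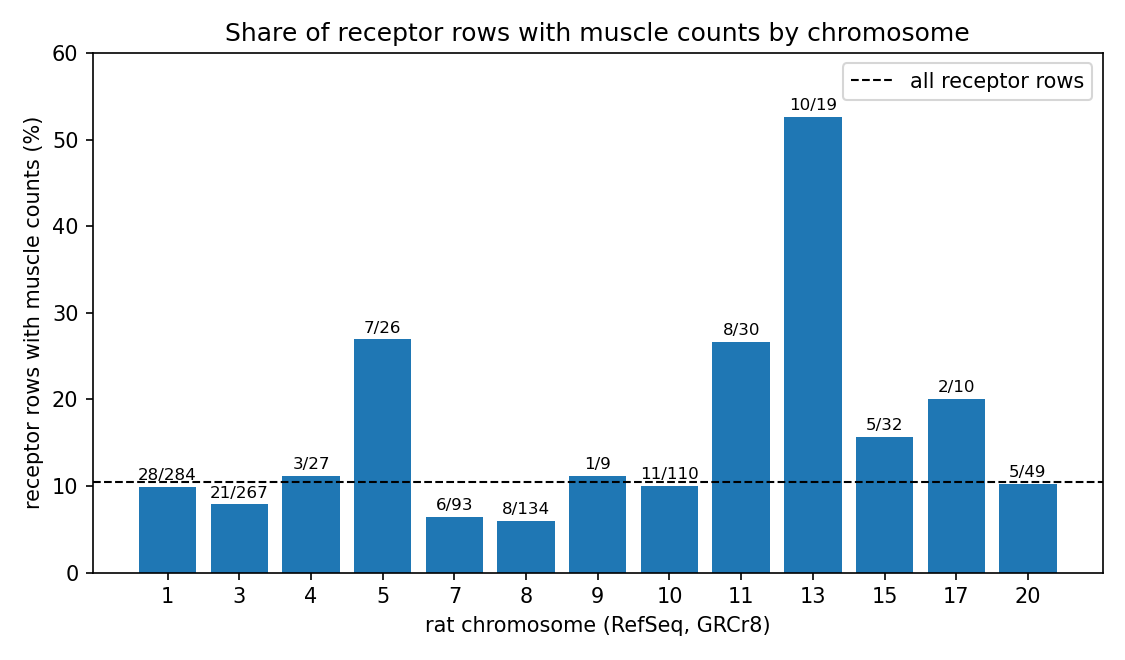
Percent of olfactory receptor rows with at least 1 muscle count (vertical axis) on each rat chromosome with 9 or more receptor rows (horizontal axis); labels give receptors with muscle counts over receptor rows, and the dashed line is the share over all rows, 10.4%. Chromosome 13 stands highest with 10 of 19.

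Class I receptors, such as Olr63 and Olr59, made up 12 of the 116 receptors and 130 of the 1114 rows but 946 of the 1270 muscle counts. Nearly all of these fell on Olr63, Olr59 and Olr58-ps: the other 9 class I receptors, among them Olr202 with 5 counts, had at most that many. The 97 class II receptors held 204 counts, and 7 receptors, Olr1585 among them, could not be assigned from their RefSeq names. RefSeq lists 5 of the 116 as pseudogenes, out of 34 such rows (14.7%), and 110 as coding, out of 1064 (10.3%). Receptors with 2 or more RefSeq transcripts made up 15.5% of the 116 and 9.34% of the rows, and held 1028 of the muscle counts. Most of the 1028 fell on Olr63 (446 counts, 2 transcripts) and Olr59 (444 counts, 4 transcripts), and Olr1585 held 83 (3 transcripts).

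The nearest coding genes that are not receptors were read from the RefSeq gene order. Olr63, Olr59 and Olr58-ps lie between Trim68, a ubiquitin ligase with 11.1 ± 1.29 CPM in muscle (SD, n = 6), and the globin gene Hbb-bs, which had no muscle count. The receptors Olr62 and Olr60, which lie next to Olr63 and Olr59 on one side, had no muscle count either, so that muscle reads were unevenly spread within the cluster. On the side before Olr1585, Olr1587 and Olr1589 lies Mnda, a gene of myeloid cells with 1.38 ± 0.503 CPM. Olr854 lies beside Ecpas, a proteasome adaptor at 529 ± 50.5 CPM, and Olr35 overlaps in RefSeq with the anion transporter Slco2b1 at 24.4 ± 4.88 CPM. Olr287 lies between Sprn and Scart1, which had 0.314 ± 0.200 and 0.206 ± 0.187 CPM. Whether reads were counted by strand is not known here, and the part of neighbouring transcripts in these receptor counts was not tested. The muscle libraries also held transcripts of the vessel wall, in which Olr59 is known from other tissues. Endothelial markers (Pecam1, Cdh5, Kdr and Tek) summed to 356 to 701 CPM, and 9 smooth muscle and pericyte genes, a list added after values were seen, ranged from 2.10 ± 0.826 CPM for Cnn1 to 2844 ± 285 for Des, which muscle fibres also express, with Myh11 at 211 ± 38.9 and Acta2 at 73.6 ± 15.2. Of these 9, 8 fell and Cnn1 rose in mitochondria with TMM, where 30.3% and 63.0% of all genes did. With total counts Des, Rgs5, Acta2 and Tagln fell and Cnn1 and Cspg4 rose, beside 8.93% and 84.4% of all genes. Myh11, Notch3 and Pdgfrb did not pass with total counts. In bulk tissue, few cells with much of a transcript and many cells with little cannot be told apart, and the cells of origin were not tested.

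In the mitochondria libraries receptor counts were spread over nearly the whole family, and the order of receptors was another one. Of the 1114 rows, 1070 to 1099 had a count in each library, and the receptors with muscle counts were detected almost completely, 115 or 116 of 116 per library. All receptor rows together summed to 13136 to 14411 CPM. The 116 receptors held 16.8% ± 0.373 of the receptor counts (SD, n = 6), from 16.4% to 17.4%, while they make up 10.4% of the rows.

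The receptors with muscle counts ranked above the middle of the family in mitochondria. Their median percentile among all 1114 rows was 75.1 by the mean of 6 libraries, and it was 75.7, 77.2, 73.6, 72.8, 75.9 and 71.1 in mitochondria replicates 1 to 6. The median level in single libraries was 14.1 to 17.9 CPM, and 7.76 to 9.47 CPM for the 998 receptors without muscle counts, so the ranges over libraries did not overlap. Of the 116 receptors 58 (50.0%) lay in the upper 25% of the family, as did 221 (22.1%) of the 998 others. In the lowest 25% lay 15 (12.9%) and 263 (26.4%). The median level went from 8.56 CPM at 0 muscle counts to 14.9 at 1 count, 16.2 at 2, 18.9 at 3 to 9 and 24.5 at 10 or more, with 998, 62, 26, 21 and 7 receptors. Levels within each class overlapped broadly: receptors with 1 muscle count ranged from 0.604 to 50.2 CPM. Gene lengths were not used here, so this order was not tested per length.

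**Figure D3:**
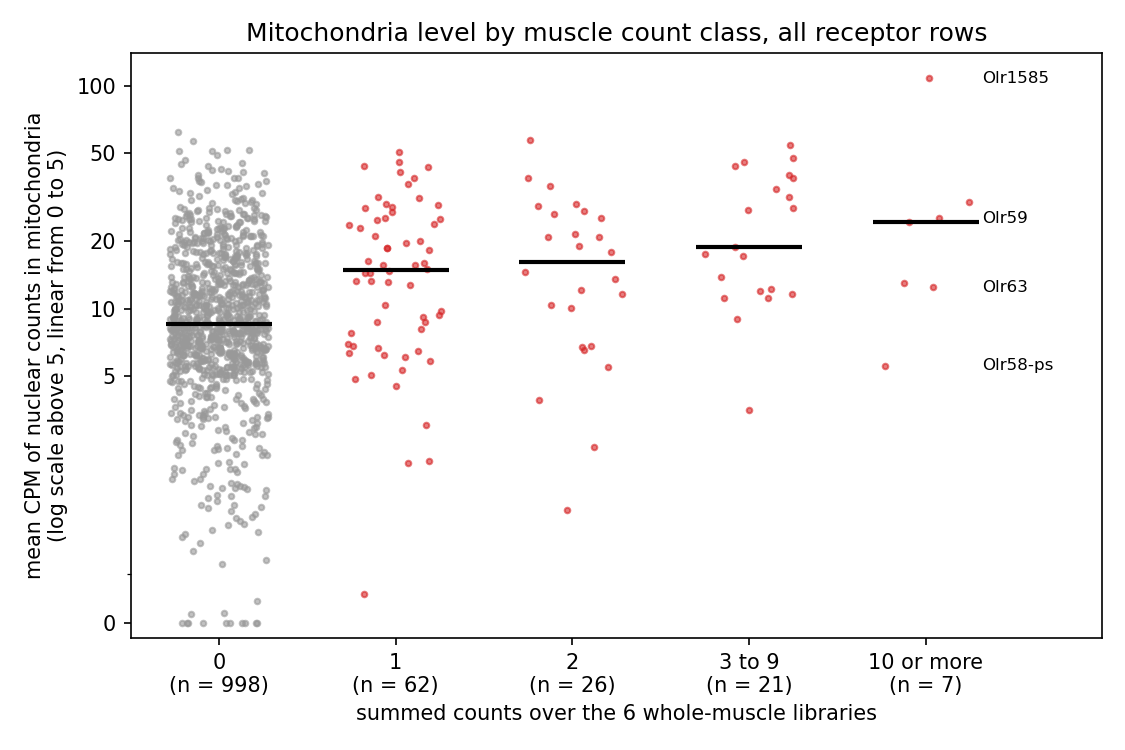
Mean CPM of nuclear counts in the 6 mitochondria libraries (vertical axis, logarithmic above 5 and linear from 0 to 5) for 1114 olfactory receptor rows, grouped by their summed muscle counts (horizontal axis); each point is 1 receptor, red where it has muscle counts, and black bars are medians. Medians go from 8.56 at 0 muscle counts to 24.5 at 10 or more, with wide overlap, and Olr1585 stands highest at 108 CPM.

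The leaders of the muscle list did not lead in mitochondria. Olr63 had 7, 11, 8, 9, 10 and 17 counts in mitochondria replicates 1 to 6, or 12.5 ± 3.75 CPM (SD, n = 6), and ranked 380th of 1114. Olr59 had 15, 31, 16, 27, 27 and 12 counts, or 25.4 ± 6.82 CPM, and ranked 110th. Olr59 was above Olr63 in 5 of the 6 mitochondria libraries and below it in replicate 6. Olr58-ps, with 5.53 ± 1.76 CPM, ranked 881st, in the lowest 25% of the family.

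Olr1585 was the exception among the leaders, since it held the first rank in mitochondria. It had 61, 100, 94, 98, 92 and 91 counts, or 108 ± 8.87 CPM, and its lowest library, at 94.7 CPM, stood above the mean of every other receptor row. The next rows were the Olr292 row ENSRNOG00000036647 without muscle counts (62.1 ± 9.60 CPM), Olr1644 with 2 muscle counts (57.0 ± 6.85), Olr1688 without (56.7 ± 15.2) and Olr834 with 3 (54.1 ± 9.51), whose spreads overlap. A second row named Olr292, ENSRNOG00000057889, also without muscle counts, had 22.97 ± 5.28 CPM (rank 140). Olr659 (1 muscle count, 50.2 ± 10.9 CPM) and Olr287 (8 muscle counts, 47.4 ± 4.84) complete the 5 highest receptors with muscle counts, and Olr288, beside Olr287 in the genome, had 51.7 ± 7.10 CPM without any muscle count. Of the other receptors with at least 10 muscle counts, Olr1877 ranked 66th (29.9 ± 8.75 CPM), Olr854 ranked 124th (24.5 ± 4.73) and Olr35 ranked 357th (13.1 ± 6.26).

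The lowest receptors in mitochondria show that a muscle count did not go with a high rank in each case. Olr714 had 1 count in muscle and 3 in mitochondria, from 3 libraries, or 0.604 ± 0.663 CPM. Olr1550-ps had 2.29 ± 1.06 CPM, Olr1591 had 3.24 ± 1.36, Olr1590 had 3.29 ± 1.44 and the Olr1654 row ENSRNOG00000054976 had 3.55 ± 2.46, each with 1 or 2 muscle counts. A second row named Olr1654, ENSRNOG00000062525, had no muscle count and 21.0 ± 2.63 CPM (rank 169), so this name alone does not mark a low receptor. Olr1590 and Olr1591 belong to the group on chromosome 13 that also holds Olr1585.

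**Figure D4:**
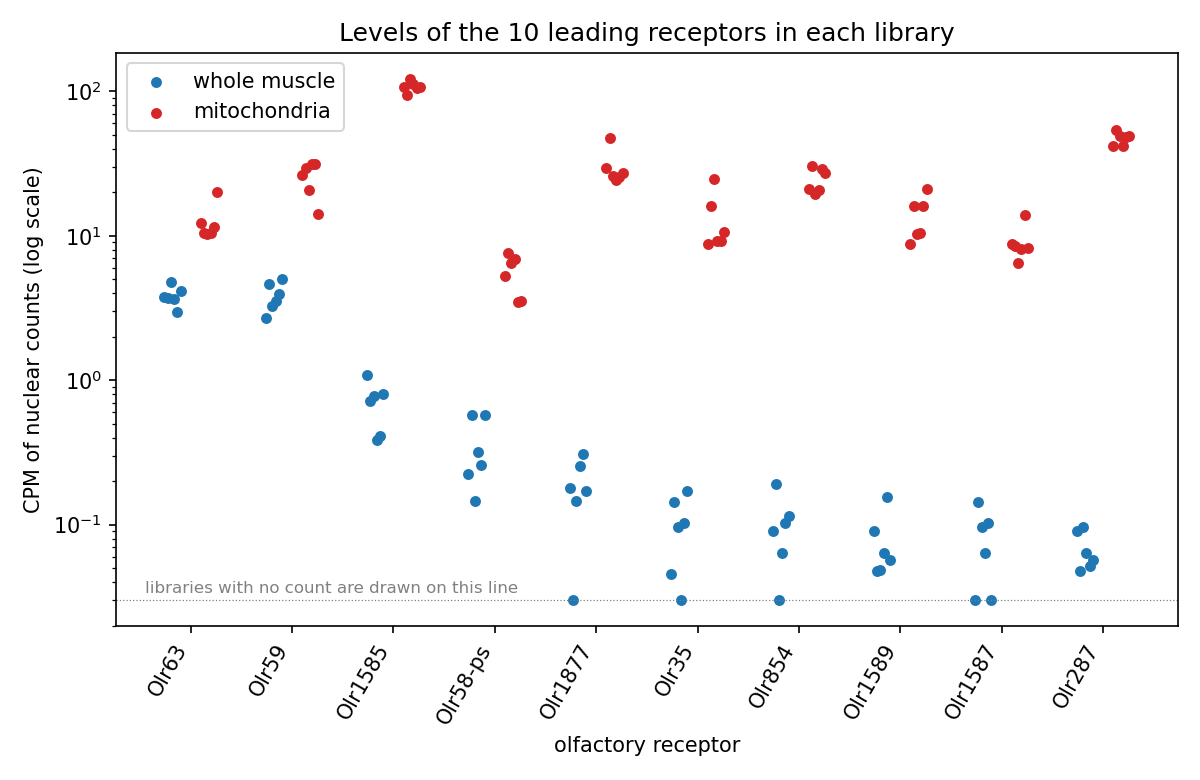
CPM of nuclear counts (logarithmic vertical axis) of the 10 receptors with the most muscle counts in each of the 6 whole-muscle libraries (blue) and 6 mitochondria libraries (red); each point is 1 library, and muscle libraries with no count are drawn on the dotted line. The gap between the groups is narrowest for Olr63 and Olr59 and wide for Olr1585 and Olr287.

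Set side by side, the groups lay closest for Olr63 and Olr59. By CPM of nuclear counts the mean in mitochondria was 3.25 times that in muscle for Olr63 and 6.59 times for Olr59, against 15.8 times for Olr58-ps, 155 times for Olr1585 and 696 times for Olr287, and in all 5 every mitochondria library lay above every muscle library. The latter held for 114 of the 116 receptors, the exceptions being Olr714 and Olr1558, and for 71.4% of all genes with a count. These ratios contain the muscle counts that chose the receptors. They also depend on the scaling, since the fold changes of all genes tested with edgeR have a median of 2.51 on the log2 scale with TMM (trimmed mean of M-values) scaling and of 4.62 with total counts, both in favour of mitochondria.

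With TMM scaling the log2 fold change of mitochondria over muscle was -0.45 ± 0.22 for Olr63 (SE), 0.57 ± 0.21 for Olr59, 1.83 ± 0.39 for Olr58-ps and 5.07 ± 0.18 for Olr1585. With total counts it was 1.64, 2.68 and 3.91 for the first 3 of these, so the direction for Olr63 turns with the scaling. Under both scalings Olr63, Olr59 and Olr58-ps lay below the median of all genes, and they were the only 3 of the 111 receptors tested that did. The next lowest was Olr1193, at 3.99 with TMM. The filter on low counts left out Olr714, Olr1142, Olr1550-ps, Olr1558 and Olr1591. Of the 111 receptors 110 passed the threshold as higher in mitochondria and 0 as lower in edgeR with TMM, where 63.0% and 30.3% of all 24679 genes did. DESeq2 gave the same counts, 110 and 0, and at an unadjusted p under 0.05 edgeR had 1 as lower, Olr63. Olr63 was the one that did not pass with TMM. With total counts all 111 passed as higher, where 84.4% of all genes did, and 8.93% passed as lower. Since muscle counts chose the receptors and most passed the filter through their mitochondria counts, nothing is read from these counts.

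Olr1, the lipoprotein receptor that shares the name pattern, is a lectin of the Clec cluster on endothelium and macrophages. It had 2, 8, 10, 1, 1 and 1 counts in muscle replicates 1 to 6, with 18 of 23 in replicates 2 and 3. In mitochondria it had 24, 41, 30, 17, 27 and 26 counts, or 33.5 ± 8.16 CPM, and a log2 fold change of 5.16 ± 0.34 (SE).

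The other genes of odour transduction were looked at from a list of 26, of which 25 were found and tested (Gng13 was not found). These were not chosen by their counts. Genes such as Cngb1, Cnga4, Gnal and Omp had fewer than 1 CPM in muscle and 34.6 to 141 CPM in mitochondria, whereas Slc12a2 and Gnb1 had 113 and 64.5 CPM in muscle and 61.6 and 44.0 in mitochondria. In all, 17 of 25 were higher and 8 lower in mitochondria by edgeR's quasi-likelihood test with TMM, beside the 63.0% and 30.3% of all genes tested. Their median log2 fold change was 2.19, also with Rtp1 at its bound, beside 2.51 over all genes, and 11 lay above the latter.

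Among the signalling proteins, Gnal, the G protein subunit that couples to the receptors, went from 0.447 ± 0.189 CPM in muscle to 55.6 ± 7.45 CPM in mitochondria (SD, n = 6), a log2 fold change of 4.82 ± 0.22 (SE, edgeR adjusted p = 7.65e-19). Adcy3, the cyclase, had 10.98 ± 3.54 and 92.7 ± 9.46 CPM, and its rise of 0.92 ± 0.16 was below the median of all genes (edgeR adjusted p = 4.25e-06). The subunits of the cyclic nucleotide-gated channel Cnga2, Cnga4 and Cngb1 had 0.0406 to 0.268 CPM in muscle and 18.9 to 141 in mitochondria, the highest being Cngb1 with a log2 fold change of 6.87 ± 0.23. Ano2, the chloride channel of the cilia, and the exchanger Slc24a4 rose by 3.85 and 6.06 on that scale. Gnb1, a broadly expressed G protein subunit, and Slc12a2, a chloride transporter, fell, with log2 fold changes of -2.71 and -3.02 (edgeR adjusted p = 3.75e-19 and 1.06e-20). These were the only genes of the list that also fell with total counts, at -0.59 and -0.90.

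Of the proteins that carry receptors to the cell surface, Rtp1 had no muscle count and 57 counts in mitochondria, at least 442-fold higher by CPM with 3 counts over the 6 muscle libraries as the floor. Rtp2 had 3 counts in muscle and 82 in mitochondria. Rtp4 and Reep1, which are not restricted to olfactory neurons, had 13.7 ± 2.92 and 58.0 ± 7.43 CPM in muscle and fell with TMM, with log2 fold changes of -1.49 and -2.22. With total counts Rtp4 rose by 0.62 and Reep1 did not pass (-0.08, edgeR adjusted p = 0.686). Omp, the marker protein of mature olfactory neurons, had 0.417 ± 0.113 CPM in muscle and 69.3 ± 10.3 in mitochondria (5.16 ± 0.21, SE, edgeR adjusted p = 2.20e-20). Of the 11 olfactory neuron markers, Adcy3 and Ebf2 had more muscle counts (1290 and 1277) than Olr63 and Olr59 (446 and 444), and the other 9, among them Ano2 with 174, Gnal with 50 and Omp with 49, had fewer.

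Among the regulators of receptor genes, Lhx2 rose by 3.44, Emx2 by 2.03 and Ebf2 by 0.38 on the log2 scale with TMM. Ebf1 and Ldb1 fell with TMM (-0.89 and -1.28) and rose by 1.23 and 0.83 with total counts. The modulators Stoml3, Grk3, Pde1c and Arrb2 rose by 3.08, 2.51, 2.19 and 1.62, and Pde4a and Ric8b fell with TMM (-1.92 and -1.22). With total counts Ric8b rose by 0.90 and Pde4a did not pass, at 0.21 (edgeR adjusted p = 0.261). In all, 21 of the 25 were higher and 2 lower with total counts, beside 84.4% and 8.93% of all genes.

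**Figure D5:**
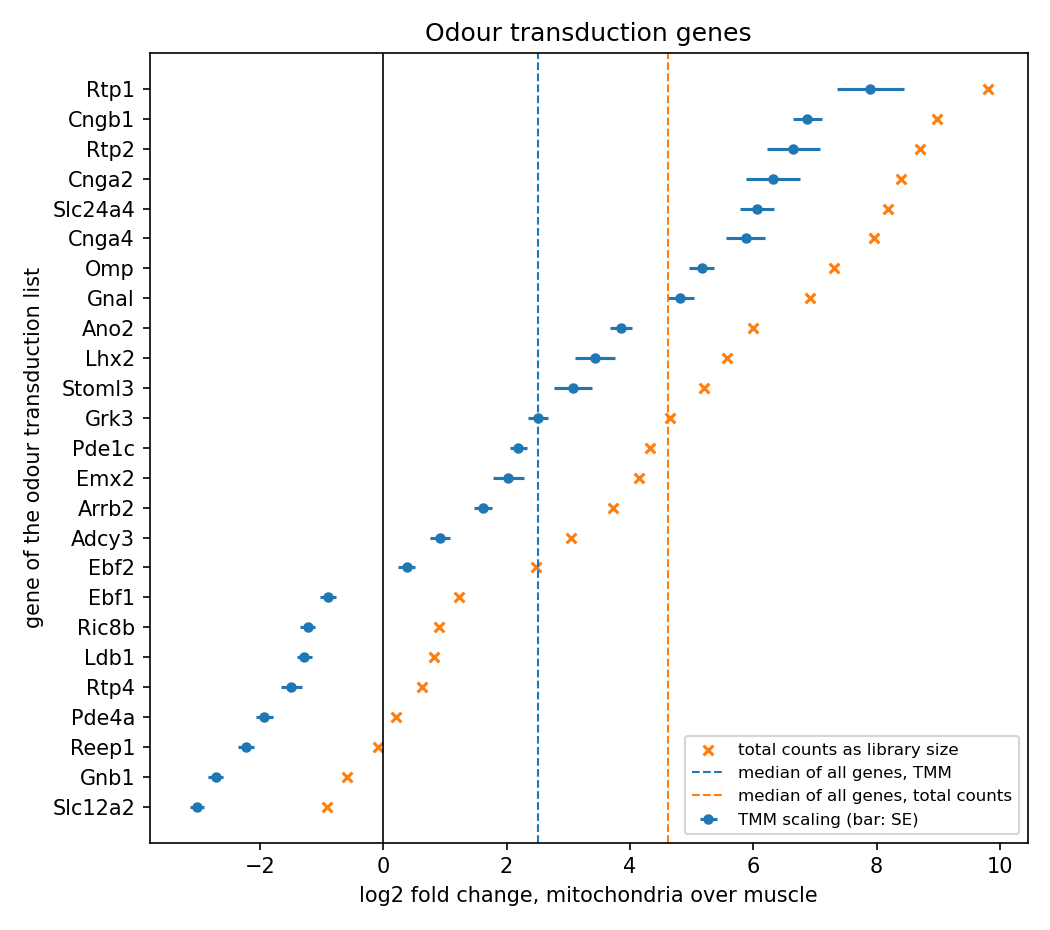
Log2 fold change of mitochondria over muscle (horizontal axis) for the 25 odour transduction genes found, with TMM scaling (blue points, bars are SE) and with total counts (orange crosses); dashed lines are the medians of all genes tested, 2.51 and 4.62. Cngb1, Rtp2 and Cnga2 lie far right and Gnb1 and Slc12a2 lie below 0 under both scalings; the value for Rtp1, which has no muscle count, depends on edgeR's prior count.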

How the data were processed

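RNA sequencing counts of 6 whole-muscle and 6 mitochondria libraries were analysed. The authors deposited raw counts per gene, with Ensembl identifiers and names. Per the submitters' processing notes, the tools were STAR 2.7.11a, HTSeq, cutadapt 4.6 and FastQC 0.74, with mRatBN7.2 as genome build. How strand and multiply mapped reads were treated is unknown here, so reads of near-identical receptors may be shared or lost.

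Groups and replicates came from the titles. Equal numbers mark the same animal; deviations of paired libraries correlated between -0.00809 and 0.0202. All genes were fitted with edgeR 4.0.16 in R 4.3.3 (quasi-likelihood, TMM, minimum count 10, no animal term, Benjamini-Hochberg, threshold 0.05); p-values refer to spread between animals. SE is the absolute log2 fold change over the square root of F. The code was tested on simulated data. Alternatives were DESeq2 1.42.0, other scalings and filters, thinning to 573903 nuclear counts, an animal block and each library left out.

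Names, chromosomes, gene order, overlaps of gene spans and promoters came from RefSeq GRCr8; 3 of the 116 receptors share their name with another row, and rows were kept apart by gene identifier. Receptors and lists were chosen with earlier results of these data known. Named are the 15 receptors with most muscle counts, those with counts in at least 4 muscle libraries, the 5 highest and 5 lowest in mitochondria, the 3 highest without muscle counts, RefSeq neighbours of the leading 10 (1 neighbour is not reported here), and all odour transduction genes; genes of single chromosomes and classes were added after values were seen. The marker lists also held leukocyte (74.9 CPM summed in muscle, 316 in mitochondria), fibroblast (1982 and 323) and erythroid genes (Alas2 alone was found, 6.24 and 19.0). The fibroblast sum ranged from 1074 to 5813 CPM over muscle libraries, with 96135 counts of Col1a1 in muscle replicate 6. Against their lists' sums, Pdgfra was higher in mitochondria (38.6 CPM in muscle, 102 in mitochondria) and Lyz2 lower (38.3 and 17.4).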

Additional observations from a re-analysis of the deposited data

Results flagged for a closer look

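In 18 of 104 groups of 6 values examined, 1 library stood apart from the other 5 (gap to the nearest value over Dixon's 95% limit for 6 values, as a share of the range); chance gives about 1 in 20, and receptors with a count in a single muscle library meet this by construction.

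In mitochondria, Olr63 had 19.97 CPM in replicate 6 and 10.3 to 12.2 elsewhere. Olr1877 had 47.4 CPM in replicate 2 (24.2 to 29.6 elsewhere). Olr1587 had 13.8 CPM in replicate 5 (6.47 to 8.71 elsewhere). Among odour transduction genes, Cnga4 had 48.5 CPM in replicate 4 (30.5 to 34.8 elsewhere), Omp had 89.2 CPM in replicate 3 (at most 69.7 elsewhere) and Pde4a had 65.8 CPM in replicate 5 (89.1 to 101 elsewhere).

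In muscle, the summed level of the receptors was 13.7 CPM in replicate 6, which is also the sum over all receptor rows, and 9.82 to 11.1 elsewhere. Olr1345 and Olr1366 each had 0.321 CPM in replicate 4 and at most 0.0483 and 0.0573 elsewhere. Cnga2 had 0.192 CPM in replicate 2 (at most 0.0516 elsewhere), and Stoml3 had 2.35 CPM in replicate 1 (0.290 to 0.912 elsewhere). Receptors with counts in 1 muscle library were Olr1550-ps (0.103 CPM, replicate 5), Olr1590 (0.0483, replicate 3), Olr1591 (0.0516, replicate 5), Olr659 (0.0452, replicate 1), Olr714 (0.0483, replicate 3) and Olr834 (0.172, replicate 6). No explanation was tested for these values.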

How the results depend on the processing

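The number of receptors and their concentration depend on the count asked of a receptor: 28 receptors had at least 3 muscle counts, 7 at least 10, and 27 had counts in at least 2 libraries, and leaving out 1 muscle library gave 94 to 111 in place of 116. Under the rules of 3 counts, 10 counts and 2 libraries the leading pair held 76.99%, 84.4% and 77.5% of muscle receptor counts (70.1% as reported), the leading 5 held 89.4%, 97.9% and 89.9% (81.3%), and the leading 10 held 93.4% and 93.99% under the first and last (85.0%); Olr63 alone held 42.3% with at least 10 counts (35.1%). The median mitochondria percentile was 85.1, 89.0 and 89.0 under these rules (75.1), and the share of mitochondria receptor counts 5.43%, 1.59% and 5.37% (16.8%). With receptors chosen without 1 muscle replicate the percentile was 73.5 to 79.5 (79.5, 77.8 and 79.0 without replicates 3, 4 and 5) and the share 13.7% to 16.4% (13.7%, 15.3%, 15.4%, 16.4%, 14.9% and 13.7% without replicates 1 to 6). Without the leading 4 receptors, an alternative chosen after seeing the data like the one with Olr1, the share was 15.7%.

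Thinning every library to 573903 nuclear counts left 35 receptors tested and 35 called higher (110 as reported), since fewer passed the filter. Leaving out 1 library gave 74 to 112. Without any 1 muscle library it was 74 of 75 tested, again because fewer passed the filter. The count called lower was 1 (Olr63) with nuclear genes alone, without the filter and without mitochondria replicate 6, and 0 to 1 over all libraries left out. Of the odour transduction genes 2 were lower with total counts and 4 when thinned (8 as reported). Leaving out 1 library changed neither count (17 and 8). With total counts the log2 fold changes of Ebf1 (1.23), Ldb1 (0.83), Olr63 (1.64), Pde4a (0.21), Ric8b (0.90) and Rtp4 (0.62) changed sign, and Ebf1 did so when thinned (0.046). Over all settings 780 of 794 values of 45 named genes kept direction and call. A gene that failed the filter in a setting gave no value there, so such lost calls are not among the 794. Where a setting gave no adjusted p-value, direction alone decided. The replicate block (the animal as a term) gave 110 and 0 receptors and 17 and 8 odour transduction genes, and changed no call. Ranks per kilobase of coding length were not run, because no protein or length table was used here.

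Depth limits the muscle values: 88 of the 116 receptors rest on 1 or 2 counts, and a total of 0 counts allows up to 0.0259 CPM. Libraries of the groups differ in input RNA and in preparation, which cannot be told apart from the compartment.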
